A study of Mus musculus with 18 samples.

Results

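Between day 1 and day 3 of RANKL, in libraries labelled wild type (WT), most subunits of the respiratory chain and enzymes of the tricarboxylic acid cycle passed the test as higher, and most genes of macrophage identity, antigen presentation and the interferon response passed as lower. Some of these majorities rested on single libraries. Antigen presentation had 10 of 15 lower, and 7 without a day 1 library that stood apart. The majority of the respiratory chain was lost without a day 3 library. The lists of bone resorption and of cell fusion split, with 9 higher and 8 lower of 24 and 7 higher and 6 lower of 21. Over all genes tested, 12.7% were higher and 19.3% lower. Cathepsin K (Ctsk), the protease that digests bone collagen, rose 100.5-fold and Acp5, the tartrate-resistant acid phosphatase used to stain osteoclasts, rose 37.4-fold. Adgre1, which encodes the macrophage surface antigen F4/80, fell to a level 4.7-fold lower. The comparison covered all genes that were expressed, and its members were 6 of the 18 libraries of the series, 3 in each group, with 14241 of the 34745 genes of the table tested. Those 6 were every library whose title gave the WT label and day 1 or day 3.

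The cells were bone marrow-derived macrophages, macrophage precursors grown from the marrow of C57BL/6 mice aged 4 to 8 weeks with the growth factor M-CSF. The paper describes such cells as from Zmat1+/+ littermates from crosses of heterozygous carriers of a global Zmat1 deletion. Both groups received M-CSF throughout, and they differed in 1 or 3 days of the cytokine RANKL. The libraries labelled knockout (KO) followed the same course, and RANKL-free day 0 libraries existed for both labels. No source used here says whether libraries of a group came from separate mice or separate cultures, so p-values measure only the spread between these libraries, which may be technical.

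RANKL binds its receptor RANK on precursors of the monocyte and macrophage lineage. With costimulation through receptors paired with the adaptors DAP12 and FcRγ, it raises calcium and NF-κB and AP-1 activity, which induce the master regulator NFATc1. NFATc1 and its partners switch on genes for cell fusion, attachment to bone, acid secretion and matrix digestion, while factors that keep the macrophage program, such as IRF8, are silenced. The mature osteoclast is a multinucleated cell rich in mitochondria that pumps acid onto bone through the vacuolar proton pump.

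Libraries stood apart in a way that the groups did not explain, and the labels were checked first. Zmat1, the deleted gene, had 48, 59 and 64 counts in the libraries labelled WT on day 1 and 56, 80 and 39 on day 3, and every library labelled KO held at least 49, so its counts did not follow the labels and the labels are used here only as names. It did not pass the test between the days (log2 fold change -0.29 ± 0.41 SE, adjusted p = 0.613). Of the day 1 libraries labelled WT, 1 has a title with a double hyphen, and a pair carried the number 1. In the whole series 5 libraries have such titles and 0 of the 6 day 3 libraries do, so title style and day are partly confounded. In these 5 the 10 most abundant genes took 18% to 19.9% of counts. The day 0 means labelled WT include a library of this kind. Below, the double-hyphen library is the WT day 1 library. In the double-hyphen library the 10 most abundant genes took 19.8% of counts, against 11.8% and 12.9% in the other day 1 libraries and 6.71% to 7.98% on day 3. On the first principal component of the 6 libraries, which held 72.6% of the variance, it lay at -121 while the other day 1 libraries lay at -33.4 and -44.7 and the day 3 libraries at 59.7 to 76.9. Total counts were alike, from 14391433 to 16548944. Values on day 1 are given in the order double-hyphen library, other library numbered 1, library 2, and values on day 3 in the order of libraries 1, 2 and 3. Levels are CPM, read counts per unit of library size after TMM scaling (the trimmed mean of M values, a scaling that makes most genes alike between libraries). Parentheses give the log2 fold change ± its standard error (SE) and the adjusted p.

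The promoters of a few genes of these results are shown here so that the letters can be read beside the values below. Each is the 300 bases from 250 before to 50 after the annotated start site, 5′ to 3′ on the strand of the gene, from RefSeq on GRCm38.p6, and capitals mark every match on either strand to AP-1 (TGACTCA or TGAGTCA), the NFAT core (TGGAAA), E-box (CACGTG), M-box (CATGTG), interferon-stimulated response element (ISRE, GAAA, any 2 bases, GAAA) or E2F (TTTCGCG or TTTGGCG). Oscar and Mst1r were among the genes with the largest rise, Slamf8 had the largest fall of the named genes with more than 3 counts in some library of both groups, C1qc and Fcgr1 belong to the macrophage identity list, in which 23 of 28 genes fell, and Ifit1 was added after its values were seen.
Oscar (chr7:3616108-3616407, minus strand): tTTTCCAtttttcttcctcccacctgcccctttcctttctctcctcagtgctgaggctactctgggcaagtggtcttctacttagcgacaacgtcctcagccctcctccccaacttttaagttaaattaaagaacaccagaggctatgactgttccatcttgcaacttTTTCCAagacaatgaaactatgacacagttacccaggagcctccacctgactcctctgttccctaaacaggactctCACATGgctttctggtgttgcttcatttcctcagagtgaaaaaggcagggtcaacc
Mst1r (chr9:107906639-107906938, plus strand): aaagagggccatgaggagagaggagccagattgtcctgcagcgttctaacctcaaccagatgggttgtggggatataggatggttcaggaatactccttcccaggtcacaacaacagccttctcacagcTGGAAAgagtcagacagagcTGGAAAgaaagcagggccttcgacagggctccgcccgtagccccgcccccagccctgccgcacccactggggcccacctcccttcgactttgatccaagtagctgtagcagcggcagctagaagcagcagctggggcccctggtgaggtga
Slamf8 (chr1:172590519-172590818, minus strand): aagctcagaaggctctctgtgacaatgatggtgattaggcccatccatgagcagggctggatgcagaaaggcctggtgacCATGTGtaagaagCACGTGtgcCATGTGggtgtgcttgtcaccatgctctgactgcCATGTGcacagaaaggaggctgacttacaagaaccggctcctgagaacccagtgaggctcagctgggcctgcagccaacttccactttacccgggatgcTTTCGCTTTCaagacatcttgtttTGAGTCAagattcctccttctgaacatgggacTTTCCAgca
C1qc (chr4:136892865-136893164, minus strand): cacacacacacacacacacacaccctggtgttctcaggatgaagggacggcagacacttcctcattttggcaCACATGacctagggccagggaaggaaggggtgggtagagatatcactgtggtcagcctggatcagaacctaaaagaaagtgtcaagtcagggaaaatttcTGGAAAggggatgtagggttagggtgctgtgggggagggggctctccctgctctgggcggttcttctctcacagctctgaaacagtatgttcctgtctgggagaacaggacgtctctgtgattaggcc
Fcgr1 (chr3:96293920-96294219, minus strand): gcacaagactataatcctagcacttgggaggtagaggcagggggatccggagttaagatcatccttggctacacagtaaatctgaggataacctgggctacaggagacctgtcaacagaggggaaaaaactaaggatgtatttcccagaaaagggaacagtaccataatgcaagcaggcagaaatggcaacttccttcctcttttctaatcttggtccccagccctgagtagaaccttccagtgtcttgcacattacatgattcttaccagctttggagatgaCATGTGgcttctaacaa
Ifit1 (chr19:34640639-34640938, plus strand): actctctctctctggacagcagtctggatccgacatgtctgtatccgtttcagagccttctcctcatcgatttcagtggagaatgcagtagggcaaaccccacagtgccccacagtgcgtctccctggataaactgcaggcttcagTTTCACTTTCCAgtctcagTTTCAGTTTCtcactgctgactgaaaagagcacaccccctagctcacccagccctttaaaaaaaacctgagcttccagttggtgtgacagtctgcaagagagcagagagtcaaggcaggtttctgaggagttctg
The windows of Oscar and Mst1r each held a pair of NFAT core matches, at the 5′ end and at positions -82 to -77 in Oscar and at -121 to -116 and -101 to -96 in Mst1r, counted from the start site. Slamf8 held 3 M-box matches, a single E-box and an ISRE match at positions -15 to -6. Ifit1 held ISRE matches at -104 to -95 and -85 to -76, the first overlapping an NFAT core match at -98 to -93. The windows shown all hold matches, and others do not. Calcr and Ckmt1, also among the largest rises, held no match in any window, nor did another window of Mst1r. The windows of Ifit2 and Irf7, which fell, held none either. No promoter of the tricarboxylic acid cycle is shown. There the windows of Mdh2, Cs and Pdhb held no match, while those of Fh1 and Suclg1 held an NFAT core match. Of the 32851 promoters in the table, 21.4% held the NFAT core, 14.2% the M-box, 7.2% the E-box, 5.2% AP-1 and 3.4% the ISRE, so most of these matches are to short and common letters. Shares over called genes are not given because 10316 of 14227 symbols tested had a promoter there, under 80%.

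Over all genes tested, 4554 passed the test between day 3 and day 1 (32.0% of 14241, edgeR, adjusted p under 0.05), 1811 higher (12.7%) and 2743 lower (19.3%). Each list count below is to be read beside these shares, 12.7% higher and 19.3% lower. Changes of at least 2-fold were found in 1093 genes higher (7.68%) and 1254 lower (8.81%). Without the double-hyphen library 2970 genes were called (20.9%), and 1149 of the higher (8.07%) and 1655 of the lower genes (11.6%) were called both with and without it. Without day 3 library 3, 2860 genes were called. Scaling by total counts alone moved the median log2 fold change of all genes from -0.058 to 0.245, a shift of 0.303, and raised the share of called genes that were higher from 39.8% to 68.8%, so small differences are relative to the scaling. RNA was taken from whole cultures, in which fewer cells of a type and less RNA per cell cannot be told apart.

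**Figure D1:**
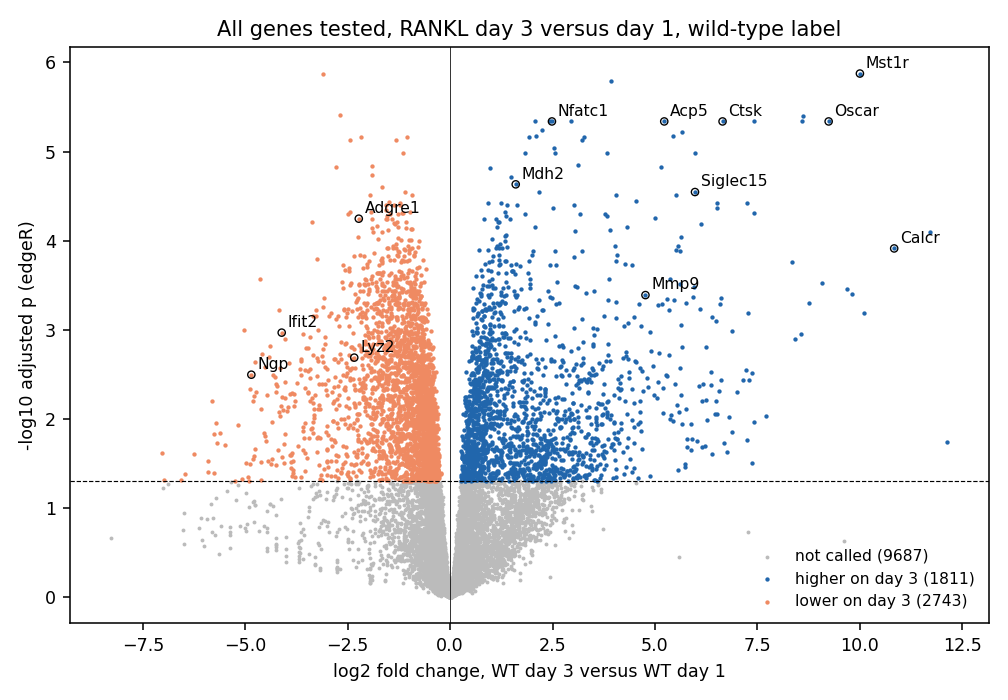
Each point is 1 of the 14241 genes tested, with the log2 fold change of WT day 3 against WT day 1 on the horizontal axis and -log10 of the adjusted p on the vertical axis; the dashed line is the threshold of 0.05, blue points were called higher (1811), orange points lower (2743), and open circles mark labelled genes. Mst1r, Oscar and Calcr lie farthest to the right of the labelled genes and Ngp farthest to the left.

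The largest rises were in genes with almost no reads on day 1. Mst1r, the receptor of macrophage-stimulating protein (ENSMUSG00000032584, chromosome 9, 107906873 to 107920383 on GRCm38), had 0, 0.12 and 0.207 CPM on day 1 and 119, 112 and 149 on day 3, at least 598-fold higher (adjusted p = 1.33e-06). Oscar, an immunoglobulin-like receptor that costimulates osteoclast formation through FcRγ (ENSMUSG00000054594, chromosome 7, 3609813 to 3616157), had 0.167, 0.0601 and 0.0689 CPM on day 1 and 87.6, 45.3 and 51.5 on day 3, at least 289-fold higher (adjusted p = 4.60e-06). Neither gene was above 0.207 CPM in any day 1 library, and no library overlapped between the days. Calcr, the calcitonin receptor that marks mature osteoclasts, was at 0 in all 3 day 1 libraries and at 13.4, 15.1 and 17 CPM on day 3, at least 71.5-fold higher (adjusted p = 0.000122).

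Among the other genes at 0 in every day 1 library, Nyap2, a phosphoinositide 3-kinase adaptor better known from neurons, reached 20.5, 24.7 and 37.6 CPM, at least 130.0-fold higher. Msln, which encodes mesothelin, reached 5.26, 11.1 and 6 CPM (at least 35.1-fold), and Slc14a2, a urea transporter, 7.07, 3.76 and 9.59 CPM (at least 32.1-fold). The mitochondrial creatine kinase Ckmt1, which buffers ATP, reached 3.46, 5.23 and 4.66 CPM (at least 21-fold), Pate4 reached 2.68, 4.41 and 3.7 CPM (at least 16.9-fold), and Card14, a scaffold of NF-κB signalling, 7.23, 7.41 and 12.9 CPM (at least 43.2-fold). All 6 of these genes stayed called without the double-hyphen library. Card14 lies over the more abundant Sgsh on the opposite strand, and since no source says whether counting used strand, its reads are uncertain. RP23-325D10.3, a gene model within the span of Hsd3b7 and Setd1a on the same strand, had 70.8, 40.9 and 0.281 CPM on day 3 and 0 on day 1 (adjusted p = 0.0183), but a single day 3 library lay near 0 and the call was lost without the double-hyphen library (adjusted p = 0.0508). In all, 155 called genes had at most 3 counts in every day 1 library and 72 in every day 3 library.

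Transcription factors of the osteoclast moved unequally. Of 25 tested, 9 rose and 4 fell, with a median log2 fold change of 0.561 beside -0.058 over all genes. Nfatc1 had 99.5, 109 and 134 CPM on day 1 and 639, 509 and 766 on day 3 (2.49 ± 0.20, adjusted p = 4.60e-06). Its day 1 levels lay near the day 0 mean of 111 CPM, so the rise fell after day 1. Fosl2, an AP-1 subunit, had 53, 77.8 and 88.6 CPM on day 1 and 644, 527 and 740.5 on day 3 (3.12 ± 0.30, adjusted p = 1.42e-05). Ppargc1b, the coactivator that drives mitochondrial biogenesis in osteoclasts, had 3.33, 5.05 and 7.17 CPM on day 1 and 41.5, 34 and 51.3 on day 3 (3.02 ± 0.32, adjusted p = 3.94e-05). All 3 day 3 libraries were above all 3 day 1 libraries in each of these genes. Jdp2, an AP-1 family repressor and cofactor needed for osteoclast formation, had 12.2, 111 and 95.2 CPM on day 1 and 516, 471 and 664 on day 3 (2.91 ± 0.62, adjusted p = 0.00323), with the double-hyphen library near the day 0 mean of 12 CPM and the other day 1 libraries well above it.

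Mitf, the lysosomal and osteoclast regulator, did not pass the test, with 103, 71.6 and 63.4 CPM on day 1 and 87.6, 81.4 and 93 on day 3 (0.14 ± 0.17, adjusted p = 0.54). Its relative Tfe3 fell (216, 176 and 179.8 CPM on day 1 and 110.2, 118 and 79.9 on day 3, -0.89 ± 0.16, adjusted p = 0.00107). Nfatc2, the NFAT member that is present before RANKL, also fell, with 75.7, 93.5 and 102 CPM on day 1 and 42.5, 44.5 and 29.5 on day 3 (-1.22 ± 0.24, adjusted p = 0.00222). Nfatc1 and Nfatc2 therefore moved in opposite directions with no overlap between days in either. Tfeb, the third relative, passed with all libraries (-1.06 ± 0.35, adjusted p = 0.0306) and not without the double-hyphen library (adjusted p = 0.257).

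**Figure D2:**
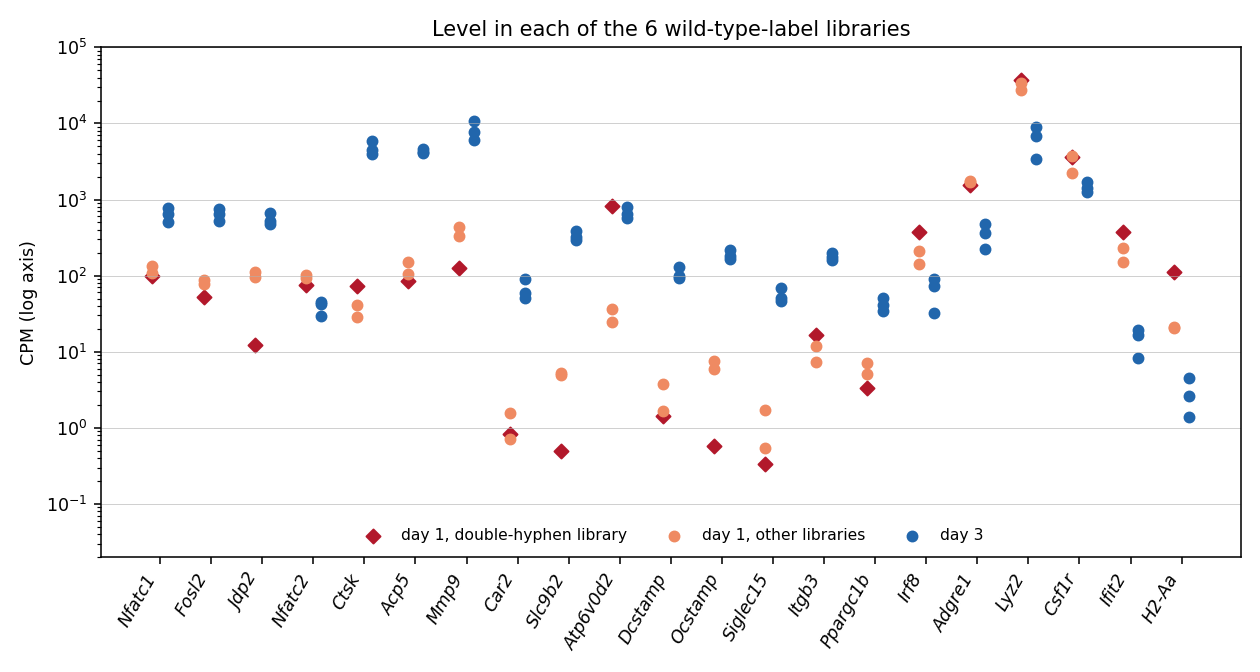
CPM on a log axis of 21 genes in each of the 6 libraries labelled WT, with the day 1 double-hyphen library as red diamonds, the other day 1 libraries as orange circles and day 3 as blue circles. Day 3 lies above day 1 without overlap from Nfatc1 to Ppargc1b apart from Nfatc2, which is lower, and Atp6v0d2, where the double-hyphen library is above all 3 day 3 libraries; the genes from Irf8 onward are lower on day 3.

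Of 24 genes tested in a mixed list of osteoclast repressors and macrophage factors, 13 fell, 11 did not pass and none rose, with a median log2 fold change of -0.924. Without the double-hyphen library 10 fell and none rose, and under total counts 10 fell and 2 rose. Irf8, which represses Nfatc1 in precursors, had 370.1, 144 and 209 CPM on day 1 and 72.7, 89.2 and 32.7 on day 3 (-1.89 ± 0.36, adjusted p = 0.00166). It was lowest in day 3 library 3, and the days did not overlap. Irf7, a driver of the type I interferon response, had 402, 619.8 and 645 CPM on day 1 and 69.2, 105 and 61 on day 3 (-2.83 ± 0.64, adjusted p = 0.00439). Irf4, an interferon regulatory factor of dendritic cells and lymphocytes, had 14.5, 2.41 and 3.24 CPM on day 1 and 0.723, 1.35 and 1.29 on day 3 (-2.57 ± 0.59, adjusted p = 0.00474), with its highest level by far in the double-hyphen library.

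Genes of resorption split into those that rose by far and lysosomal proteases that fell. Of 24 tested, 9 rose and 8 fell (37.5% and 33.3%, beside 12.7% and 19.3% of all genes). The median log2 fold change was 0.039, a value whose sign changed when some libraries were left out. Ctsk (ENSMUSG00000028111, chromosome 3, 95499256 to 95509362) had 73.7, 28.4 and 40.5 CPM on day 1 and 3974, 4436 and 5918 on day 3 (6.65 ± 0.54, adjusted p = 4.60e-06). Acp5 (ENSMUSG00000001348, chromosome 9, 22126731 to 22135746) had 86.2, 106 and 151 CPM on day 1 and 4158, 4099.8 and 4573 on day 3 (5.23 ± 0.41, adjusted p = 4.60e-06). Both rose in every library, and their day 0 means were 19 and 43.4 CPM. Car2, the carbonic anhydrase that supplies protons for acid secretion, had 0.833, 0.722 and 1.59 CPM on day 1 and 50.4, 58.7 and 90.6 on day 3 (5.98 ± 0.55, adjusted p = 1.04e-05). Slc9b2, a sodium and proton exchanger, had 0.5, 4.99 and 5.31 CPM on day 1 and 322, 290.1 and 391 on day 3 (6.51 ± 0.71, adjusted p = 4.32e-05).

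The cathepsins of the macrophage lysosome went the other way. Ctsb, a cysteine protease, had 27901, 12444 and 12960.2 CPM on day 1 and 5382, 6435 and 3659 on day 3 (-1.78 ± 0.36, adjusted p = 0.00223). Ctss, a protease of antigen processing, had 8359.9, 3388 and 3253 CPM on day 1 and 1276, 1546 and 768 on day 3 (-2.06 ± 0.50, adjusted p = 0.00656). Ctsl had 1704, 1406 and 1355 CPM on day 1 and 455, 513 and 341 on day 3 (-1.77 ± 0.31, adjusted p = 0.000906). Each was lower in all 3 day 3 libraries. Ctsd, an aspartic protease of the lysosome, had 29568, 11209 and 12158 CPM on day 1 and 6285, 6576 and 3709 on day 3 (-1.68 ± 0.44, adjusted p = 0.00998). Psap, the precursor of the saposins, had 49284, 13479 and 20536 CPM on day 1 and 8234, 9342 and 4926 on day 3 (-1.89 ± 0.48, adjusted p = 0.00828). Neither call held without the double-hyphen library, at adjusted p = 0.0686 and 0.0584. That library held the highest level of Ctsb, Ctss, Ctsl, Ctsd and Psap.

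Of 18 subunits of the vacuolar proton pump tested, 7 rose, 1 fell and 10 did not pass (median log2 fold change 0.482), and without the double-hyphen library 10 rose and none fell, while 4 rose without day 1 library 2 and 4 without day 3 library 3. Under total counts 11 rose. Atp6v1b2, a catalytic-sector subunit, had 794, 441 and 471 CPM on day 1 and 1262, 1231 and 1612 on day 3 (1.27 ± 0.27, adjusted p = 0.00298). Atp6v1d of the central stalk had 155, 97.8 and 104 CPM on day 1 and 272, 240.1 and 319 on day 3 (1.22 ± 0.19, adjusted p = 0.00051). Atp6v1h had 103, 85.8 and 68.6 CPM on day 1 and 161, 146 and 193 on day 3 (0.96 ± 0.20, adjusted p = 0.00322). In each of these subunits the double-hyphen library was the day 1 library nearest to day 3. Atp6v0a1, which encodes a membrane-sector isoform, was the subunit that fell, with 288, 104 and 122 CPM on day 1 and 75.7, 97.6 and 51.5 on day 3 (-1.19 ± 0.35, adjusted p = 0.0178). That call was lost without the double-hyphen library (adjusted p = 0.157).

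Atp6v0d2, the osteoclast isoform of a membrane-sector subunit, was named after its values were seen because a single library decided it. It had 818, 24.7 and 36.7 CPM on day 1 and 652, 579 and 797 on day 3 (1.21 ± 1.15, adjusted p = 0.443). The double-hyphen library held 818 CPM, above all 3 day 3 libraries, and the other day 1 libraries were the lowest. Without it the log2 fold change was 4.48 and the adjusted p was 0.0136.

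Fusion genes moved in both directions. Of 21 tested, 7 rose and 6 fell (33.3% and 28.6%, beside 12.7% and 19.3% of all genes), with a median of 0.156. Without the double-hyphen library 8 rose and 6 fell. Dcstamp, the multipass membrane protein required for fusion, had 1.42, 1.68 and 3.72 CPM on day 1 and 93.7, 99.4 and 132 on day 3 (5.56 ± 0.70, adjusted p = 0.000116). Ocstamp, its partner, had 0.583, 5.95 and 7.58 CPM on day 1 and 180.4, 165 and 214 on day 3 (5.29 ± 0.82, adjusted p = 0.000453). Siglec15, a sialic acid-binding receptor that signals through DAP12, had 0.333, 0.541 and 1.72 CPM on day 1 and 51.3, 46.7 and 69 on day 3 (5.98 ± 0.61, adjusted p = 2.85e-05). These genes were at most 7.58 CPM in any day 1 library and at least 46.7 CPM in every day 3 library. Ninj1, Adam8 and Bst2 were 3 of the 6 members that fell. Ninj1, a membrane protein of cell rupture, had 555, 415 and 501 CPM on day 1 and 161, 202 and 105 on day 3 (-1.65 ± 0.23, adjusted p = 0.000222). The protease Adam8 had 941, 1252 and 806 CPM on day 1 and 404, 417 and 342 on day 3 (-1.37 ± 0.24, adjusted p = 0.00103). Bst2, known as tetherin and itself induced by interferon, had 418, 652 and 636 CPM on day 1 and 213, 213 and 147 on day 3 (-1.58 ± 0.51, adjusted p = 0.0283). The call on Bst2 was lost without any 1 library other than the double-hyphen one, at adjusted p = 0.0599 to 0.102.

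Adhesion and actin ring genes held 13 that rose and 6 that fell of 28 tested (median 0.547). These are 46.4% and 21.4%, beside 12.7% and 19.3% of all genes. The αvβ3 integrin, with which osteoclasts hold bone, gained both chains. Itgb3 had 16.7, 7.34 and 11.9 CPM on day 1 and 163, 176 and 201 on day 3 (3.91 ± 0.47, adjusted p = 7.50e-05). Itgav had 66.9, 99.3 and 64 CPM on day 1 and 297, 256 and 321 on day 3 (1.92 ± 0.26, adjusted p = 0.00017). Net1, an exchange factor for RhoA, had 5.42, 10.9 and 9.23 CPM on day 1 and 60.1, 61.3 and 90.8 on day 3 (3.05 ± 0.36, adjusted p = 7.75e-05). The β2 chain of the leukocyte integrins, Itgb2, fell from 1661, 1186 and 1274 CPM to 621, 601 and 565 CPM (-1.21 ± 0.22, adjusted p = 0.00132). The actin regulator Evl fell from 418, 132 and 145 CPM to 50.6, 71.6 and 33.3 CPM (-2.16 ± 0.48, adjusted p = 0.00407). Itgb3 and Itgb2 thus moved in opposite directions.

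Receptors for the osteoclast signals changed unevenly, with 7 higher and 13 lower of 26 tested (median -0.418). Without the double-hyphen library 7 were higher and 9 lower (median -0.206), and under total counts 8 and 10 (median -0.089). Tnfrsf11a, which encodes RANK, had 49.2, 134 and 89 CPM on day 1 and 153, 131 and 172 on day 3 and did not pass the test (0.74 ± 0.30, adjusted p = 0.0695). Csf1r, the M-CSF receptor, had 3664, 2200.1 and 3749.8 CPM on day 1 and 1426, 1698 and 1256 on day 3 and fell (-1.13 ± 0.26, adjusted p = 0.00467). Trem2, a DAP12-paired receptor, had 893, 525 and 444 CPM on day 1 and 235, 286 and 120.2 on day 3 (-1.54 ± 0.32, adjusted p = 0.00286). Pirb, an inhibitory receptor, had 557, 419 and 497 CPM on day 1 and 158, 171 and 127 on day 3 (-1.69 ± 0.31, adjusted p = 0.00134). Cd300lb had 416, 229 and 275 CPM on day 1 and 93.9, 108 and 61.2 on day 3 (-1.81 ± 0.27, adjusted p = 0.000325). These fell while Oscar and Calcr rose. Camk4, the calcium-dependent kinase upstream of CREB, had 0, 0.0601 and 0.138 CPM on day 1 and 0.929, 1.59 and 0.954 on day 3, with at most 3 counts in every day 1 library, and was at least 5.45-fold higher (adjusted p = 0.00914).

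Regulators of NF-κB and JAK signalling held 3 that rose and 5 that fell of 15 (20.0% and 33.3%, beside 12.7% and 19.3% of all genes). Their median, -0.227, turned to 0.0154 under scaling by total counts. Cish, a feedback inhibitor of the SOCS family, rose from 1.08, 0.962 and 0.965 CPM to 2.68, 3.35 and 4.38 CPM (1.78 ± 0.39, adjusted p = 0.0039). Its relative Socs3 rose from 7.58, 19.5 and 13.9 CPM to 37.7, 38.6 and 45.7 CPM (1.57 ± 0.41, adjusted p = 0.0107). Tnfrsf1b, the second receptor of TNF, fell from 1544, 712 and 823 CPM to 224, 265 and 127 CPM (-2.32 ± 0.35, adjusted p = 0.000392). The kinase Ikbke fell from 206, 132 and 120.5 CPM to 38.1, 45.4 and 24.9 CPM (-2.08 ± 0.38, adjusted p = 0.00135). Nfkbia, the inhibitor IκBα, passed the test at adjusted p = 0.0456 and not without the double-hyphen library (adjusted p = 0.14).

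Of 28 macrophage identity genes tested, 23 fell, 1 rose and 4 did not pass, with a median log2 fold change of -2.017, and without the double-hyphen library 18 fell and 1 rose. Adgre1 had 1574, 1754 and 1701 CPM on day 1 and 367, 479.9 and 224 on day 3 (-2.23 ± 0.26, adjusted p = 5.67e-05). Fcgr1, the high-affinity IgG receptor, had 247, 163 and 199 CPM on day 1 and 21.3, 33.6 and 8.14 on day 3 (-3.27 ± 0.55, adjusted p = 0.000703). Lyz2, lysozyme, had 37426, 27275 and 33596 CPM on day 1 and 6923, 9043 and 3413 on day 3 (-2.34 ± 0.46, adjusted p = 0.00205). The 3 genes did not overlap between days, and in each the lowest level was in day 3 library 3. Cd14, the co-receptor of lipopolysaccharide, had 141, 80 and 154 CPM on day 1 and 46.4, 60.5 and 32.7 on day 3 (-1.43 ± 0.34, adjusted p = 0.00587). Clec7a, the β-glucan receptor dectin-1, had 1297, 88.6 and 218 CPM on day 1 and 36.4, 59 and 15.3 on day 3 (-3.86 ± 0.89, adjusted p = 0.00517). The size of that fall rested on the double-hyphen library, since without it the log2 fold change was -2.03 (adjusted p = 0.0422). Cd33 was the member that rose, with 33.7, 15.6 and 21.2 CPM on day 1 and 85, 78.8 and 53.3 on day 3 (1.63 ± 0.53, adjusted p = 0.0315). Its day 0 mean was 56.4 CPM. That call was lost without either single-hyphen day 1 library or without day 3 library 1 or 2, at adjusted p = 0.0707 to 0.0932.

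Antigen presentation through MHC class II fell in 10 of 15 genes and rose in none (median -1.896), with 7 lower without the double-hyphen library. Ciita, the regulator of the class, had 7.5, 0.842 and 11.4 CPM on day 1 and 1.14, 0.47 and 1.07 on day 3 (-2.86 ± 0.75, adjusted p = 0.0104). It lies over the more abundant Dexi on the opposite strand, which did not pass the test. Levels of Ciita overlapped between the days, and the gene was named after its values were seen. Its call was lost within a replicate block for each label (adjusted p = 0.0622), on single-hyphen libraries only (adjusted p = 0.0552) and on only the groups compared (adjusted p = 0.061). Cd74, the invariant chain, had 507, 203 and 167 CPM on day 1 and 20.3, 36.4 and 19.6 on day 3 (-3.52 ± 0.67, adjusted p = 0.00162). H2-Aa, an α chain, had 110.1, 21 and 20.6 CPM on day 1 and 1.39, 4.53 and 2.64 on day 3 (-4.15 ± 0.86, adjusted p = 0.00267). H2-Ab1, its β chain partner, had 129, 28.3 and 33.8 CPM on day 1 and 4.65, 7.7 and 6.4 on day 3 (-3.35 ± 0.66, adjusted p = 0.00194). The α and β chains and Cd74 were more than 2-fold higher in the double-hyphen library than in the other day 1 libraries, which were in turn above all day 3 libraries.

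Of 30 interferon response genes tested, 24 fell, 6 did not pass and none rose (median -1.911), 20 fell without the double-hyphen library, and in all 30 every day 3 library was below every day 1 library, against 27.1% of all genes tested. Ifit1, whose promoter with its pair of ISRE matches is shown above, had 115, 113 and 117 CPM on day 1 and 19.7, 20 and 13.6 on day 3 (-2.69 ± 0.59, adjusted p = 0.00373). Ifit2 had 377, 152 and 232 CPM on day 1 and 16.4, 19.3 and 8.3 on day 3 (-4.11 ± 0.73, adjusted p = 0.00108). Ifit3 had 278, 213 and 233 CPM on day 1 and 21.1, 27.3 and 9.65 on day 3 (-3.64 ± 0.72, adjusted p = 0.00212). The antiviral GTPase Mx1 had 67.9, 46.5 and 51.6 CPM on day 1 and 4.96, 7.12 and 1.57 on day 3 (-3.60 ± 0.65, adjusted p = 0.00113). In Ifit1 the 3 day 1 libraries were close to each other, and in Ifit2 the double-hyphen library was the highest. The immunoproteasome subunits Psmb8, Psmb9 and Psmb10, which interferon also induces, were 3 of the 4 proteasome members that fell of 38 tested (log2 fold changes -0.73, -0.91 and -0.95, adjusted p = 0.0255, 0.0292 and 0.00207). The median of the proteasome list, -0.045, turned positive under DESeq2 size factors and under total counts. Leaving out the single-hyphen day 1 library numbered 1 or day 3 library 2 or 3 left 1 proteasome member lower, and leaving out day 1 library 2 left 2. Psmb8 and Psmb9 lost their calls there, at adjusted p = 0.0549 to 0.0965, and under total counts, at adjusted p = 0.215 and 0.165. Psmb9 overlaps Tap1 on the opposite strand, which was more abundant and also fell.

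Complement genes fell in 7 of 16 (43.8%, beside 19.3% of all genes) and rose in 1 (median -1.937). C1qa, C1qb and C1qc, the chains of the recognition molecule C1q, had log2 fold changes of -2.00, -2.14 and -2.17 (adjusted p = 0.00143, 0.000694 and 0.000812). C1qc had 2409, 1898 and 1835 CPM on day 1 and 476, 669 and 223 on day 3. C3, the central component, had 213, 428 and 622 CPM on day 1 and 35.8, 59 and 36.5 on day 3 (-3.27 ± 0.53, adjusted p = 0.000593). It was higher on day 1 than its day 0 mean of 87.5 CPM and fell below it by day 3. The inhibitor Serping1 was the member that rose, from 1.42, 2.41 and 2.48 CPM to 15.3, 17.3 and 30.2 CPM (adjusted p = 0.0161, and 0.0595 without the double-hyphen library).

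Inflammatory mediators were mixed, with 2 higher and 8 lower of 30 tested (6.7% and 26.7%, beside 12.7% and 19.3% of all genes). Without the double-hyphen library or without day 3 library 2, 5 were lower. Ccr1, a chemokine receptor of osteoclast precursors, rose from 47.1, 7.1 and 14 CPM to 172, 155 and 223 CPM (3.02 ± 0.63, adjusted p = 0.00271). Cxcl10, an interferon-induced chemokine, fell from 14.5, 98.7 and 68.6 CPM to 7.28, 7.06 and 5.5 CPM (-3.20 ± 0.78, adjusted p = 0.007). Ccl6 fell from 1171, 202 and 215 CPM to 62.7, 76.2 and 32.8 CPM (-3.21 ± 0.71, adjusted p = 0.00405). The rise of Ccr1 was larger without the double-hyphen library (log2 fold change 4.14).

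Beyond the lists, Slamf8, a receptor of the SLAM family that is found on macrophages, had 112, 40.4 and 37 CPM on day 1 and 1.24, 3.7 and 0.842 on day 3 (-5.04 ± 0.89, adjusted p = 0.00102). Adgre4, the F4/80 relative, had 12.9, 9.14 and 39.5 CPM on day 1 and 1.19, 0.882 and 0.337 on day 3 (-4.66 ± 0.66, adjusted p = 0.000267). Ifit1bl1 had 14.9, 6.49 and 17.8 CPM on day 1 and 0.826, 0.235 and 0.337 on day 3 (-4.76 ± 0.96, adjusted p = 0.00232). All 3 stayed called without the double-hyphen library. Chil3, the chitinase-like protein Ym1, had 289, 31.6 and 46.7 CPM on day 1 and 4.34, 2.94 and 7.69 on day 3 (-4.61 ± 1.15, adjusted p = 0.00768). Its fall was -2.95 on the log2 scale without that library (adjusted p = 0.0498). I830127L07Rik fell from 22.6, 3.01 and 2.96 CPM to 0.413, 0.294 and 0.224 CPM. Lrg1 fell from 8.75, 2.16 and 1.72 CPM to 0.0516, 0 and 0.393 CPM. Gpr141, at most 3 counts in each day 3 library, was at least 17.4-fold lower. Siglecf and Ear1, both known from eosinophils, passed with all libraries (adjusted p = 0.0304 and 0.049) and not without the double-hyphen library (adjusted p = 0.32 and 0.288). Reads of Ear1 may be split with near-identical copies.

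Of 75 nuclear subunits of the respiratory chain, 52 rose, 23 did not pass and none fell (median 0.567), with 38 higher without the double-hyphen library and 36 without day 3 library 3. Cyc1, cytochrome c1, had 63.9, 124 and 104 CPM on day 1 and 269.5, 259 and 310.0 on day 3 (1.52 ± 0.21, adjusted p = 0.00022). Uqcrc2, a core subunit of complex III, had 95.1, 114 and 116 CPM on day 1 and 221, 229 and 280.1 on day 3 (1.17 ± 0.14, adjusted p = 6.14e-05). Atp5b, the catalytic β subunit of ATP synthase, had 558, 839 and 743 CPM on day 1 and 1590.3, 1489 and 1831 on day 3 (1.20 ± 0.16, adjusted p = 0.000188). Day 3 lay above day 1 in these genes with no overlap. Atp5g1, which encodes the ring subunit c, had 5.75, 17.5 and 13.7 CPM on day 1 and 52.5, 49.5 and 58.7 on day 3 (2.11 ± 0.35, adjusted p = 0.000709). Cox7a1, an isoform known from muscle, had 0.75, 1.08 and 0.965 CPM on day 1 and 3.2, 2.35 and 3.98 on day 3 (1.75 ± 0.49, adjusted p = 0.0152), with adjusted p = 0.0564 without the double-hyphen library and 0.0589 without day 3 library 3.

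In the tricarboxylic acid cycle, which feeds that chain, 19 of 20 enzymes rose and none fell (median 0.889), 16 rose without the double-hyphen library, and in all 20 the day 3 libraries lay above day 1 without overlap, against 23.8% of all genes tested. Mdh2, malate dehydrogenase, had 146, 204 and 188 CPM on day 1 and 513, 514 and 605 on day 3 (1.60 ± 0.16, adjusted p = 2.33e-05). Idh3a had 28, 68.8 and 41.4 CPM on day 1 and 167, 146 and 187 on day 3 (1.85 ± 0.30, adjusted p = 0.000577). Citrate synthase, Cs, which opens the cycle, had 206, 291 and 286 CPM on day 1 and 511, 483 and 582 on day 3 (1.01 ± 0.14, adjusted p = 0.000217). Pdhb of pyruvate dehydrogenase had 52.1, 61 and 61.7 CPM on day 1 and 147, 124 and 179.6 on day 3 (1.37 ± 0.18, adjusted p = 0.000171). The day 0 means of these 4 enzymes were 123, 23.9, 205 and 46.1 CPM. Suclg2, named after its values were seen, was the member that did not pass, with 21, 41.9 and 33.4 CPM on day 1 and 43.6, 43.7 and 50.9 on day 3 (adjusted p = 0.128).

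Ckb, the brain-type creatine kinase that buffers ATP, had 162, 243 and 217 CPM on day 1 and 1078, 1181 and 1320.3 on day 3 (2.52 ± 0.28, adjusted p = 4.32e-05). In all, 7 of the 16 mitochondrial biogenesis and creatine kinase genes tested rose and none fell (4 rose without day 3 library 3). Glycolysis held 9 that rose and 2 that fell of 20, and 5 that rose without day 3 library 3. Ldhb, the lactate dehydrogenase chain of oxidative tissues, rose from 29.2, 12.9 and 21 CPM to 53, 62.3 and 58.2 CPM (1.46 ± 0.29, adjusted p = 0.00224). Ldha rose from 343, 568 and 478 CPM to 878, 740.3 and 1159.7 CPM (1.00 ± 0.25, adjusted p = 0.00862). The glucose transporter Slc2a1 rose from 51.3, 47.9 and 44.2 CPM to 76.5, 69.7 and 90.8 CPM (0.73 ± 0.21, adjusted p = 0.0155). That call was lost without day 1 library 2 (adjusted p = 0.0522) or day 3 library 3 (adjusted p = 0.0694). Hk1, the hexokinase bound to mitochondria, rose from 95.3, 105 and 135 CPM to 177, 185 and 260.4 CPM (0.89 ± 0.17, adjusted p = 0.00173). Hk3, the hexokinase of myeloid cells, fell from 419.9, 176 and 201 CPM to 115, 112 and 84.9 CPM (-1.35 ± 0.30, adjusted p = 0.00389). The hexokinase isoforms named thus moved in opposite directions.

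**Figure D3:**
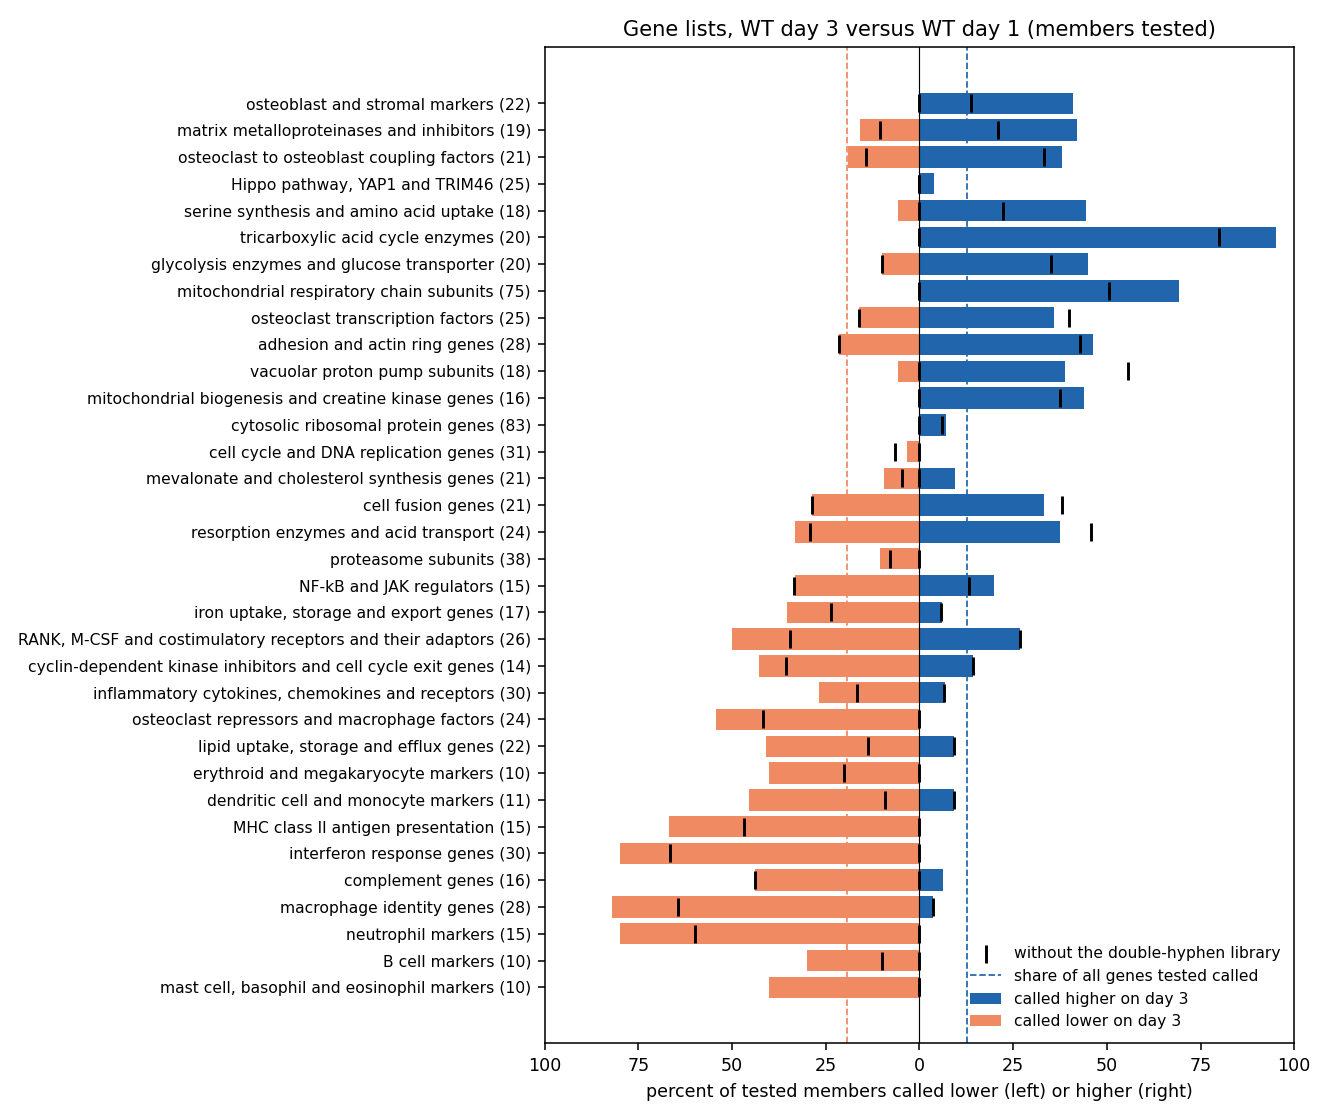
For each gene list with at least 10 members tested, the percent of members called higher on day 3 (blue, right) and lower (orange, left), ordered by the median log2 fold change, with dashed lines at the share of all genes tested (12.7% higher, 19.3% lower) and black ticks at the share without the double-hyphen library. The tricarboxylic acid cycle (19 of 20 higher) and the macrophage identity genes (23 of 28 lower) lie farthest past the dashed lines; medians near 0, such as those of the proteasome and NF-κB lists, change sign with the scaling.

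Serine synthesis and amino acid uptake genes rose in 8 of 18 and fell in 1 (median 0.928), but 4 rose without the double-hyphen library and 4 without day 3 library 3. Asns, asparagine synthetase, had 6.92, 22 and 18.3 CPM on day 1 and 57, 47.9 and 90.3 on day 3 (2.04 ± 0.47, adjusted p = 0.00482) and stayed called without it. Phgdh, the first enzyme of serine synthesis, had 3.42, 13.6 and 13.7 CPM on day 1 and 21.7, 30.8 and 25.8 on day 3 (adjusted p = 0.149). Psat1, the next enzyme, had 13.1, 58.9 and 52.9 CPM on day 1 and 64.1, 76 and 106 on day 3 (adjusted p = 0.121). Neither passed. Aldh1l2, of mitochondrial folate metabolism, passed (2.24 ± 0.68, adjusted p = 0.0217) and lost its call without that library (adjusted p = 0.0785).

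Lipid genes fell on balance, 9 lower and 2 higher of 22 tested (40.9% and 9.1%, beside 19.3% and 12.7% of all genes, median -1.1). The number lower was 3 without the double-hyphen library and 5 without day 3 library 1 or 3. Both stearoyl-CoA desaturases named rose. Scd2 had 164, 417 and 306 CPM on day 1 and 1289, 901 and 1561 on day 3 (2.08 ± 0.36, adjusted p = 0.000817). Scd1 had 18.9, 68.7 and 65.6 CPM on day 1 and 248, 168 and 265 on day 3 (2.15 ± 0.53, adjusted p = 0.00761). Apoe, the carrier that macrophages secrete, had 20948, 7667 and 8146 CPM on day 1 and 2752, 3640.3 and 788 on day 3 (-2.36 ± 0.53, adjusted p = 0.00416). Lipa, the lysosomal acid lipase, had 3802, 1835 and 1603 CPM on day 1 and 644, 899 and 377 on day 3 (-1.92 ± 0.40, adjusted p = 0.00292). Cd36, the scavenger receptor, had 1966, 828 and 781 CPM on day 1 and 347, 454 and 139 on day 3 (-1.93 ± 0.50, adjusted p = 0.00969). That call was lost at adjusted p = 0.0638 without the double-hyphen library. Of the 21 mevalonate and cholesterol synthesis genes 2 rose and 2 fell (9.5% each, below the shares of all genes), and none was called without day 3 library 3.

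Among iron handling genes, Steap4, a metalloreductase, had 0.333, 0.0601 and 0.276 CPM on day 1 and 56.3, 82.8 and 115 on day 3 (8.59 ± 0.68, adjusted p = 4.60e-06). It was the member that rose of 17, while 6 fell (35.3%, beside 19.3% of all genes) and 10 did not pass. Slc40a1, the iron exporter ferroportin, had 959.9, 219 and 346 CPM on day 1 and 62.9, 116 and 33.7 on day 3 (-2.84 ± 0.57, adjusted p = 0.00215). Slc11a1, the phagosomal metal transporter, had 1351, 781 and 816 CPM on day 1 and 289, 324 and 118 on day 3 (-2.01 ± 0.36, adjusted p = 0.00117). The ferritin light chain Ftl1 had 17787, 15701 and 11519.9 CPM on day 1 and 4492, 5179 and 3221 on day 3 (-1.80 ± 0.29, adjusted p = 0.000568). The exporter and the storage chain were lower in every day 3 library than in any on day 1.

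Of 31 proliferation genes tested, 1 passed, the transcription factor E2f1, which fell from 40.3, 76.1 and 56.9 CPM to 38.3, 37 and 37.9 CPM (-0.62 ± 0.18, adjusted p = 0.0172). Its call was lost, with adjusted p = 0.0838 without the single-hyphen day 1 library numbered 1 and 0.0518 without day 3 library 3. It was lost as well under total counts and on only the groups compared, with adjusted p up to 0.286. The median log2 fold change of the list was 0.211 and turned to -0.157 without the double-hyphen library. The summed level of these genes in that library was 681 CPM, against 2875 and 2093 CPM in the other day 1 libraries and 1936 to 2438 CPM on day 3. Mki67 had 50.8, 172 and 206 CPM on day 1 and 233, 161 and 280.2 on day 3 (adjusted p = 0.349). Of 14 inhibitors of the cycle and genes of cell cycle exit, 2 were higher and 6 lower, and under total counts 2 and 3, beside 12.7% and 19.3% of all genes. Cdkn2a had 0.583, 2.29 and 4.34 CPM on day 1 and 15.6, 20.8 and 12.3 on day 3 (2.74 ± 0.55, adjusted p = 0.00218). Its neighbour Cdkn2b had 0.833, 5.95 and 5.79 CPM on day 1 and 24.5, 30.5 and 27.2 on day 3 (2.69 ± 0.56, adjusted p = 0.00265). Cdkn1a, p21, fell from 258, 339.7 and 288 CPM to 193, 185 and 144 CPM (-0.76 ± 0.17, adjusted p = 0.00456), a call lost under total counts (adjusted p = 0.0513). Rb1, which overlaps genes on the opposite strand that also fell, went from 76.9, 46.8 and 53.9 CPM to 26.6, 29.8 and 23 CPM (-1.16 ± 0.19, adjusted p = 0.00059). Among 83 cytosolic ribosomal protein genes, 6 rose (7.2%, beside 12.7% of all genes) and none fell. The number higher was 2 within a replicate block for each label and 3 without day 3 library 3. It was 4 without day 3 library 2 or with the replicate number as a block, 18 by DESeq2 and 20 under total counts.

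Matrix proteases and their inhibitors gave 8 higher and 3 lower of 19 tested (median 1.738), and 4 higher and 2 lower without the double-hyphen library. Without day 1 library 2, day 3 library 2 or day 3 library 3, 5, 4 and 5 were higher. Mmp9, the gelatinase of osteoclasts, had 124, 334 and 437 CPM on day 1 and 6079, 7617 and 10711 on day 3 (4.77 ± 0.73, adjusted p = 0.000408). Mmp14, the membrane-bound collagenase, had 74.5, 91.9 and 81.7 CPM on day 1 and 638, 769.6 and 903 on day 3 (3.22 ± 0.41, adjusted p = 0.000132). Timp3, an inhibitor held in the matrix, had 13.4, 40.2 and 36.9 CPM on day 1 and 234, 358 and 354 on day 3 (3.38 ± 0.72, adjusted p = 0.00309). These rose in every library. Mmp8, a collagenase of neutrophils, had 103, 34.8 and 49.7 CPM on day 1 and 4.08, 3.41 and 2.75 on day 3 (-4.19 ± 0.69, adjusted p = 0.000597). Mmp19 fell from 229.7, 86.2 and 99.8 CPM to 41.4, 46.6 and 33.7 CPM (-1.77 ± 0.31, adjusted p = 0.00105).

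Factors by which osteoclasts act on osteoblasts were called higher in 8 and lower in 4 of 21 tested (38.1% and 19.0%, median 1.269), beside 12.7% and 19.3% of all genes. Sphingosine 1-phosphate, a lipid that recruits osteoblast precursors, is made by Sphk1 and exported by Spns2. Sphk1 had 0.5, 1.14 and 1.1 CPM on day 1 and 7.74, 9.76 and 13.6 on day 3 (3.47 ± 0.72, adjusted p = 0.00265). Spns2 had 0.75, 1.44 and 2.62 CPM on day 1 and 64.5, 57.3 and 90.8 on day 3 (5.44 ± 0.47, adjusted p = 6.64e-06), though it overlaps the more abundant Mybbp1a on the opposite strand, which did not pass the test. Lif, an interleukin 6 family cytokine, had 1.17, 1.5 and 1.65 CPM on day 1 and 28.2, 28.1 and 27.4 on day 3 (4.26 ± 0.58, adjusted p = 0.000184). Cthrc1 had 0, 3.01 and 1.52 CPM on day 1 and 25, 29.6 and 24.1 on day 3 (4.06 ± 1.17, adjusted p = 0.0169), with no reads in the double-hyphen library, and adjusted p = 0.0525 without day 1 library 2. The chemokine Cxcl16 fell from 163, 207 and 169 CPM to 45.7, 54.6 and 32.1 CPM (-2.03 ± 0.27, adjusted p = 0.000184). Igf1 fell from 681, 417 and 452 CPM to 180.3, 247 and 80.9 CPM (-1.61 ± 0.37, adjusted p = 0.00477).

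The study is concerned with TRIM46 and the Hippo effector YAP1. Of the 25 genes tested in a list of the Hippo pathway, YAP1 and TRIM46, 1 passed as higher and none as lower, beside 12.7% and 19.3% of all genes. The number higher was 8 by DESeq2, 4 under total counts or with the title style in the fit, and 0 without the double-hyphen library, without day 3 library 2 or within a replicate block for each label. The gene that passed was Trim46, the E3 ligase gene of the study, and no other gene of the list passed. It had 0.333, 0.782 and 0.896 CPM on day 1 and 2.63, 3.18 and 2.47 on day 3 (2.01 ± 0.62, adjusted p = 0.0238). The call was lost without the double-hyphen library (adjusted p = 0.0845). It was lost as well without day 3 library 2 (adjusted p = 0.0606) and in 3 other alternatives (adjusted p = 0.0554 to 0.0727). The gene overlaps Krtcap2 on the opposite strand, which was more abundant and did not pass. Yap1 had 3.17, 18.3 and 17.9 CPM on day 1 and 35.8, 49.3 and 33.9 on day 3 (adjusted p = 0.143), with the double-hyphen library the lowest by far. Its paralog Wwtr1, known as TAZ, had 2.42, 8.42 and 6.2 CPM on day 1 and 16.7, 19.1 and 19.5 on day 3 (adjusted p = 0.101). The YAP1 target Cyr61 had 14.3, 75.8 and 62.3 CPM on day 1 and 256, 343 and 195 on day 3 (adjusted p = 0.055). The kinase Lats1 had 55.2, 55.1 and 49.2 CPM on day 1 and 61.7, 59.9 and 55 on day 3 (adjusted p = 0.19). The median log2 fold change of the 25 was 0.974, and in 13 the day 3 libraries lay above day 1 without overlap, beside 23.8% of all genes tested. The gene with the symbol Mst1, which encodes macrophage-stimulating protein, had 0.25, 0.12 and 0.207 CPM on day 1 and 0.723, 0.647 and 1.35 on day 3 and lay at the threshold (adjusted p = 0.04997, and 0.0886 without the double-hyphen library), within reads that overlap Rnf123.

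Markers of other cell types moved between the days. The 22 osteoblast and stromal markers tested summed to 538, 4583 and 3898 CPM on day 1 and to 16223, 21078 and 16516 CPM on day 3. Of these, 9 were higher and none lower, beside 12.7% and 19.3% of all genes. The number higher was 3 without the double-hyphen library, 4 without day 3 library 2 or 3 or within a replicate block for each label, and 6 without any other 1 library. It was 18 by DESeq2 and 17 where the fit included the title style. Bglap and Bglap2, the osteocalcin genes that define mature osteoblasts, were at 0 in all 6 libraries. Col1a1, the chain of bone collagen, had 73.6, 1288 and 1078 CPM on day 1 and 5096, 6285 and 5106 on day 3 (adjusted p = 0.0829). Col1a2 had 80.6, 963 and 868 CPM on day 1 and 3622, 4960.0 and 3811 on day 3 (adjusted p = 0.0719). Col3a1 and the matrix protein Fn1 passed with all libraries (adjusted p = 0.0462 and 0.0423). Col3a1 lost its call without any 1 of the 6 libraries (adjusted p = 0.0656 to 0.123). Fn1 lost its call without any 1 of them (adjusted p = 0.0679 to 0.128) other than the single-hyphen day 1 library numbered 1. Cxcl12, the stromal chemokine, had 10.6, 57.1 and 65.6 CPM on day 1 and 435, 488 and 489 on day 3 (3.40 ± 1.07, adjusted p = 0.0257). That call was lost at adjusted p = 0.0885 without the double-hyphen library and 0.055 without day 3 library 3. Ibsp, bone sialoprotein, had 0.833, 1.62 and 0.758 CPM on day 1 and 12.2, 25.6 and 44.9 on day 3 (4.65 ± 1.23, adjusted p = 0.0108). The day 3 values of Mmp14, Timp3, Cthrc1, Yap1, Wwtr1 and Cyr61 stand beside this change in summed stromal markers, whose part in them was not tested.

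Neutrophil markers went down, 12 of 15 lower and none higher (9 without the double-hyphen library), with summed levels of 2827, 505 and 691 CPM on day 1 and 103, 79 and 67.8 CPM on day 3. Ngp had 855, 102 and 119 CPM on day 1 and 16.2, 8.12 and 12.8 on day 3 (-4.86 ± 1.03, adjusted p = 0.00319). Ltf, lactoferrin, had 418, 73.4 and 83.6 CPM on day 1 and 11.8, 6.53 and 8.53 on day 3 (-4.42 ± 0.87, adjusted p = 0.00203). Lcn2 had 157, 23.7 and 31.6 CPM on day 1 and 5.99, 2.18 and 2.92 on day 3 (-4.25 ± 0.94, adjusted p = 0.00404). S100a9, a subunit of calprotectin, had 552, 109 and 176 CPM on day 1 and 26, 13.4 and 16.4 on day 3 (-3.90 ± 0.91, adjusted p = 0.00528). The defining neutrophil markers were above 0 in every library, and these 4 were at least 3-fold higher in the double-hyphen library than in either other day 1 library. Mmp8, Chil3, Lrg1 and the genes of antigen presentation fell beside them, and the part of these cells in those falls was not tested. B cell markers were lower in 3 of 10, T and NK cell markers in 1 of 3, erythroid and megakaryocyte markers in 4 of 10 and mast cell, basophil and eosinophil markers in 4 of 10. None was higher in these lists, beside 12.7% higher and 19.3% lower of all genes. Dendritic cell and monocyte markers were lower in 5 and higher in 1 of 11. Without the double-hyphen library the numbers lower, in that order, were 1, 0, 2, 0 and 1. Without day 3 library 3 the B cell, mast cell and dendritic cell lists had 1, 0 and 1 lower.

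**Figure D4:**
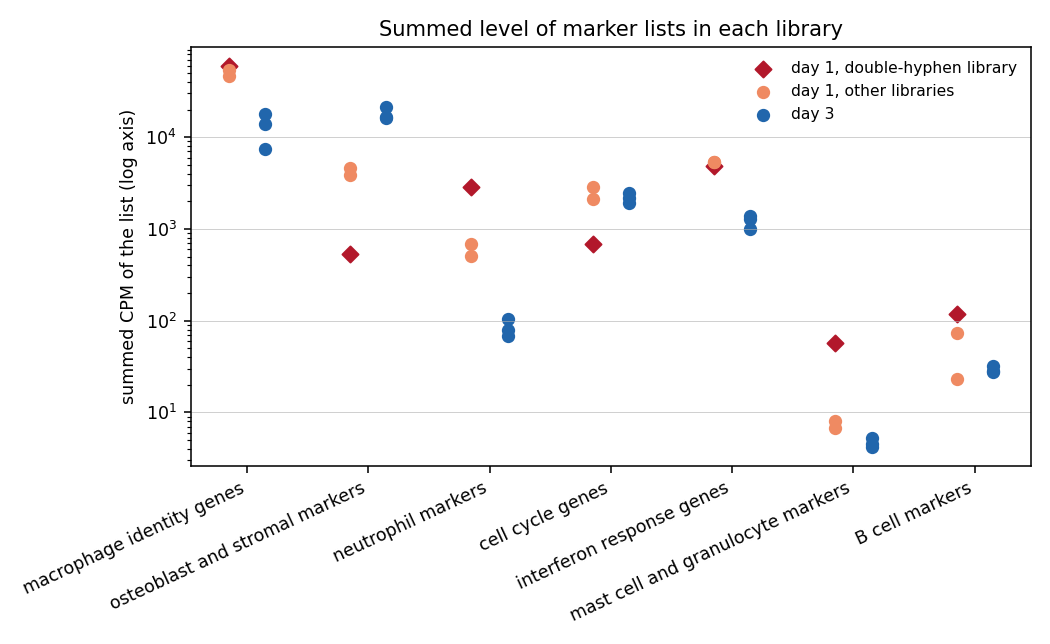
Summed CPM of 7 marker lists on a log axis in each of the 6 libraries labelled WT, with the double-hyphen library as red diamonds, the other day 1 libraries as orange circles and day 3 as blue circles. Stromal markers are at 538 to 4583 CPM on day 1 and 16223 to 21078 CPM on day 3, neutrophil markers are at 505 to 2827 and 67.8 to 103 CPM, and the double-hyphen library is the lowest in stromal and cell cycle genes and the highest in neutrophil genes.

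Set beside the earlier step, more genes were called from day 1 to day 3 than from day 0 to day 1. The sizes of these steps were not compared by a test, and a gene that did not pass is not shown to be unchanged. From day 0 to day 1, 2914 genes (20.5%) had an unadjusted p under 0.05 (edgeR). From day 0 to day 1, 335 genes passed in the libraries labelled WT (2.35%), and from day 0 to day 3, 7143 did (50.2%), with the day 1 and day 3 libraries shared by these comparisons. Nfatc1, Fosl2 and Ppargc1b, at 111 ± 3.52, 48.5 ± 12.5 and 3 ± 1.13 CPM on day 0 (SD, n = 3), did not pass the test between day 0 and day 1. Dcstamp, Ocstamp and Siglec15 were at day 0 means of 0.123, 0.268 and 0.0824 CPM, below every day 1 library. Mmp9 had a day 0 mean of 124 CPM, which the double-hyphen library matched while the other day 1 libraries were above it.

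The same step in the libraries labelled KO called 3989 genes (28.0%), 1784 higher (12.5%) and 2205 lower (15.5%). It called 2320, 2288 and 2252 genes without KO day 1 library 1, KO day 1 library 2 and KO day 3 library 2 in turn. Both labels called 3123 genes in the same direction (21.9%) and 0 in opposite directions. The difference between the labels was tested directly by edgeR: 0 genes passed (0.00%), 363 had an unadjusted p under 0.05 (2.55%), and DESeq2 called 1. Steap4 rose by 8.59 on the log2 scale in the WT label and 5.23 in the KO label, a difference of 3.36 ± 0.87 SE (unadjusted p = 0.00154, adjusted p = 1). Mmp14 gave 3.22 and 1.67, a difference of 1.55 ± 0.54 SE (unadjusted p = 0.0119, adjusted p = 1). Aldh1l2 gave 2.24 and 0.049, a difference of 2.19 ± 0.92 SE (unadjusted p = 0.0314, adjusted p = 1). A call in one label and not in the other is therefore not shown to be a difference between them, and with 3 libraries each a p that misses the threshold does not show that the labels act alike.

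By list, the KO label moved as follows. The tricarboxylic acid cycle had 17 of 20 higher, the respiratory chain 46 of 75 higher, the interferon genes 28 of 30 lower, and macrophage identity genes 16 of 28 lower with none higher. Fewer neutrophil (5 of 15) and MHC class II (3 of 15) genes were called lower there than in the WT label, and these counts were not compared by a test. On day 1 of the WT label the double-hyphen library held the highest summed levels of both lists. Of the 3 KO day 1 libraries, 2 have double-hyphen titles as well. The part of these libraries in the counts was not tested. Ctsk and Acp5 had log2 fold changes of 6.17 and 4.65 in the KO label, beside 6.65 and 5.23 in the WT label.

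**Figure D5:**
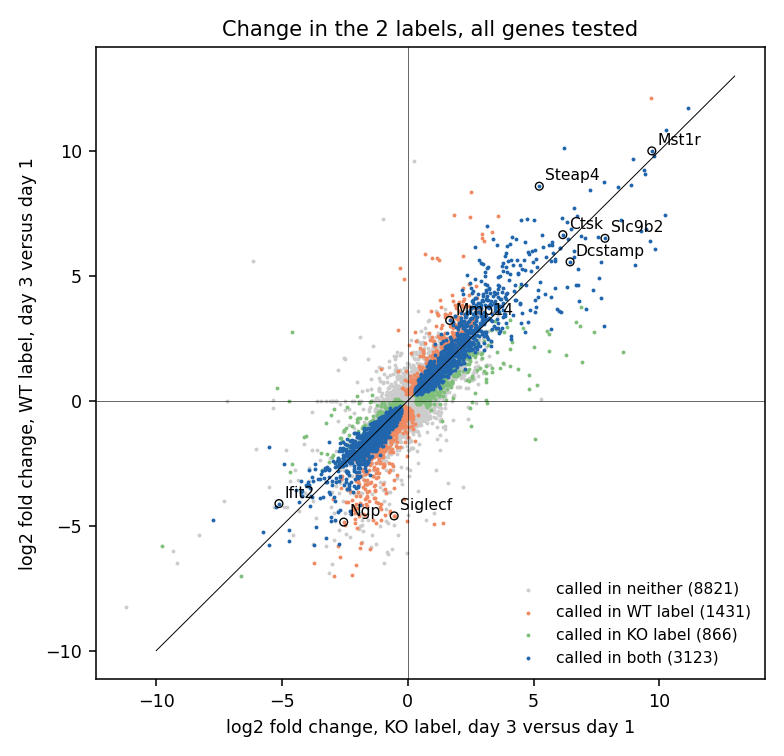
Each point is a gene tested, with the log2 fold change of day 3 against day 1 in the KO label on the horizontal axis and in the WT label on the vertical axis; the line marks equal change, and colours show genes called in both labels (3123), in 1 of them or in neither. No gene was called in opposite directions; Steap4 and Mmp14 lie above the line, and neither passed the test of the difference.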

How the data were processed

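Total RNA was extracted by the authors with a column kit and made into messenger RNA libraries with a SMARTer kit. The deposited table holds a whole-number read count and an FPKM value for each gene and library. Its counts, on GRCm38.p4 (mm10) per the labels, were used for every value, and the FPKM, made with StringTie, were left aside. The aligner and the counting program are not given in the sources used here. The table had 0 columns without a sample.

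Counts were analysed with edgeR 4.0.16 in R 4.3.3: filterByExpr at its defaults, TMM scaling, and the quasi-likelihood test in 1 fit of all 18 libraries as 6 groups, 2-sided, with Benjamini-Hochberg adjustment over 14241 genes and calls at adjusted p under 0.05. SE came from the F statistic. A gene with at most 3 counts in every library of a group was taken as at the floor, with its fold given as a bound from 3 counts per library. Floors cover counting error only, since copies made by PCR were not told apart. Groups came from the titles.

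The gene lists, which share some members, and the genes named were chosen with earlier results of these data known, so counts over a list are descriptions. Genes named were the 10 with the largest fold and the 8 with the largest difference in mean CPM either way, taken from genes that passed, had no overlap between the days and averaged over 1 CPM on the higher day. To these came the first members of each list with up to 3 called members either way, and genes of the study's qPCR. A few of these genes are not reported here. The fit was also run on simulated counts, with the same spread for every gene and no library standing apart. That run does not show how the test behaves with the double-hyphen library.

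Pairing by replicate number was checked through the correlation of deviations from group means between day 1 and day 3. Same-number libraries labelled WT gave 0.0863, -0.0659 and 0.0125 and were not taken as paired, and those labelled KO gave 0.218, 0.156 and 0.34. Alternatives were other filters and scalings, DESeq2 1.42.0, only the groups compared, replicate blocks, the title style as a covariate, single-hyphen libraries only, a mean of the pair of day 1 libraries numbered 1, and omission of 1 library at a time.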

Additional observations from a re-analysis of the deposited data

How the results depend on the processing

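Of 139 named genes called, 107 kept their call under every alternative run, 17 lost it without the double-hyphen library, and none changed sign. Many of these genes were chosen for large changes in these same data, so they do not stand for all genes called. Of all genes called, 662 of the 1811 higher and 1088 of the 2743 lower were called only with that library. The count of genes called between day 3 and day 1 in the WT label, 4554, ran from 2860 to 4664 with 1 library left out, the lowest without day 3 library 3 and 2970 without the double-hyphen library. Over the other alternatives it was 3198 to 5245. The share higher, 39.8%, was 68.8% under total counts, 51.4% on only the groups compared and 50.3% on single-hyphen libraries only. The KO count, 3989, ran from 2252 to 4243 with 1 library left out and was 659 on single-hyphen libraries only, where KO day 1 is 1 library whose spread is assumed to be that of the other groups. The difference between the labels had 0 calls apart from 1 by DESeq2 and 243 at an unadjusted p under 0.05 with a fold over 1.5 or under 0.66, and 0 genes without any 1 library. Zmat1, not called, had a log2 fold change of 0.0075 under total counts. The causes were not tested.

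The replicate number as a block gave 3865 genes in the WT label, 4090 in the KO label and 0 for the difference, and a replicate block within each label gave 3198, 4015 and 0. Of the named genes 4 and 12 lost their calls under these blocks. Not every library labelled WT correlated best with its own number.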
